A study of Ovis aries with 4 samples.

Results

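The cells described here were 164 of 38886 barcodes from the mammary glands of lactating sheep (Ovis aries), 0.422% of the barcodes kept, picked for transcripts of the interleukin-1 genes IL1A and IL1B. They were chosen by 7 genes: at least 3 unique molecular identifiers (UMIs, each counting 1 captured transcript) of IL1A and IL1B together, no UMI of C1QA, CD3E, EPCAM or EDNRA, and fewer than 5 of DCN. The measured counts of those 7 genes therefore fixed who was in, and values of these genes are given as a description only. The excluded genes mark macrophages (C1QA), T lymphocytes (CD3E), epithelium (EPCAM), mural cells (EDNRA) and fibroblasts (DCN). The study sampled 4 ewes, 1 droplet library (10x Genomics) per ewe, and its design names peak and late lactation with 2 ewes each. Libraries were titled LH and LL; LL is the series' abbreviation of late lactation, and LH was taken as peak lactation by elimination, since the labels do not spell it out. No genotype, treatment, breed or age was given, and tissue was the same in all groups. Barcodes with over 20% mitochondrial UMIs had been left out of the 39246 in the files.

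Interleukin-1 alpha and beta are inflammatory cytokines that act on the same receptor and, through MYD88 and IRAK kinases, switch on NF-kappa-B target genes such as those of chemokines and prostaglandin synthesis. Interleukin-1 beta is made mostly by monocytes, macrophages and neutrophils and needs cleavage to become active, while interleukin-1 alpha is active as a precursor and is made by a wider range of cells. In the udder both are known from the response to bacterial infection, in which milk and tissue fill with neutrophils and monocytes.

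The working name of these cells, inflammatory myeloid cells, rested on IL1A, IL1B, CXCL8 and CD14, and the data bore it out in only some of them. CXCL8, the neutrophil-attracting chemokine, had a UMI in 52 of the 164 cells and CD14, the lipopolysaccharide co-receptor of monocytes, in 9. Against 10 genes of myeloid cells and 10 of lymphocytes, panels drawn up after the data had been seen, 70 cells had UMIs of myeloid genes only, 71 of lymphoid genes only, 16 of both and 7 of neither. The cells are therefore called IL1-expressing cells here, after the rule that chose them.

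Depth and quality of the libraries touch several values below. Kept barcodes numbered 5853 and 9361 in LH replicates 1 and 2 and 12639 and 11033 in LL replicates 1 and 2, with total UMIs of 28015149 to 65339993 per library. LH replicate 1 stood apart in its CD3E barcodes. Of its 5853 kept barcodes 3209 lacked CD3E, against 8605 of 9361, 11419 of 12639 and 10063 of 11033 in the other libraries. At least 2 CD3E UMIs were found in 1323 of its barcodes, against 226, 386 and 278. What free CD3E RNA in the droplets contributed was not tested. Of the 20150 genes in the files only 774 carried a symbol, so most genes could not be named. Between 15 and 39 cell barcodes were shared by each pair of libraries, none of them (0) an IL1-expressing cell, and a doublet caller marked 7 of the 164.

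Most barcodes with IL1 transcripts were left out by the rule. Of 827 barcodes with at least 3 IL1 UMIs, 663 failed a gate, and 522 of these had C1QA, 111 EPCAM, 81 CD3E, 54 EDNRA and 14 too much DCN, with overlaps. The 164 cells held between 6.07% and 12.02% of all IL1 UMIs of a library. At the threshold, 51 of the cells had exactly 3 IL1 UMIs and 24 had 4, while 108 barcodes that met every other gate had 2. Cells with at least 2 C1QA UMIs, 1412 in all and called C1QA cells below, reached the same IL1 minimum in 496 cases (35.1%), and 29 of 2213 barcodes with at least 2 CD3E UMIs did (1.31%).

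IL1A was the commoner of the pair in the chosen cells, with a UMI in 143 of 164, against 61 for IL1B and 40 for both. Summed over the cells of a library and scaled to a common total per library (the unit is called CPM), IL1A stood at 2158 and 2784 in LH and at 1392 and 2323 in the LL libraries. IL1B stood at 2076 and 2408 CPM in the LH libraries, against 289 and 1685 CPM in LL, so that LL replicate 1 was far below the other libraries. In the C1QA cells IL1A ranged from 673 to 2842 CPM and IL1B from 124 to 1193 CPM.

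Presence of IL1B divided the cells. The 61 cells with an IL1B UMI had a median of 1031 UMIs and 522 genes, with 0.640% of UMIs mitochondrial. The 103 without one, all with at least 3 IL1A UMIs, had 2354 UMIs and 1015 genes, with 3.30% mitochondrial. By the panels, 54 of the 61 had myeloid genes only, 4 both, 1 lymphoid genes only and 2 neither. Of the 103, 70 had lymphoid genes only, 16 myeloid genes only, 12 both and 5 neither. This division was made after the data had been seen, and it is described without a test.

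**Figure D1:**
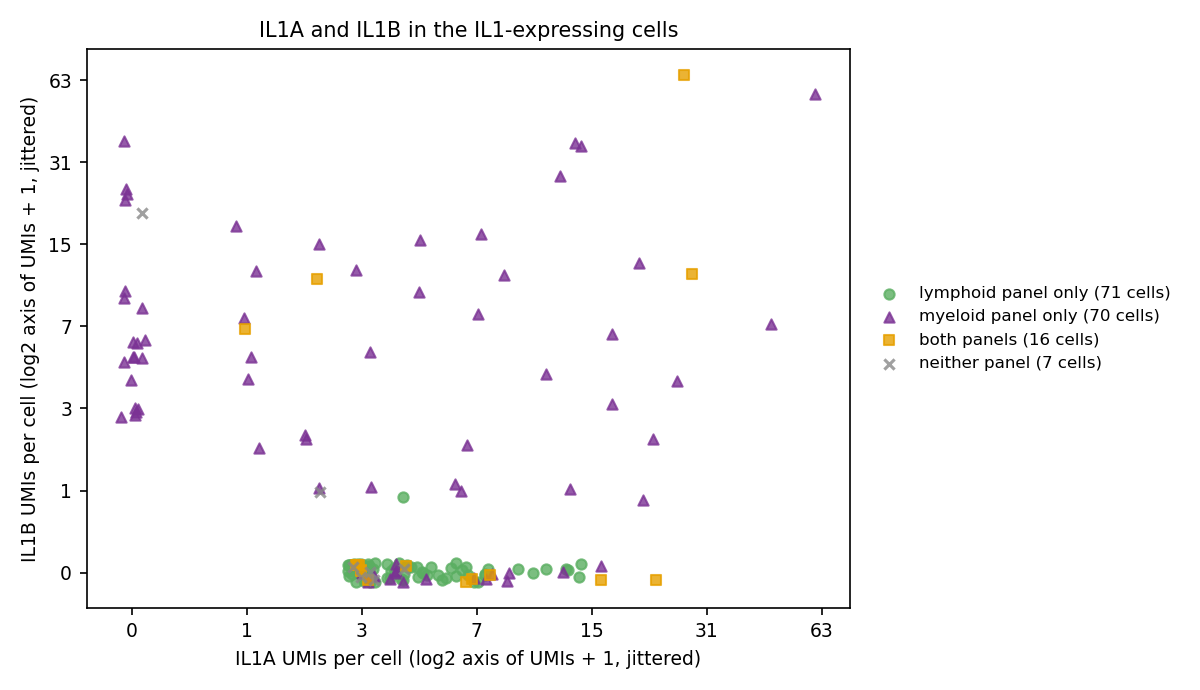
IL1A (x axis) and IL1B (y axis) UMIs in each of the 164 IL1-expressing cells, on log2 axes of UMIs + 1 with a small random offset; colours and shapes give the panel of genes found in the cell. Cells without IL1B lie along the bottom and are mostly lymphoid-panel cells (70 of 103), while 54 of the 61 cells with IL1B are myeloid-panel cells.

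In the cells with IL1B, genes of inflammatory myeloid cells were frequent. CXCL8 had a UMI in 61.5% and 79.3% of them in LH and in 75.0% and 81.8% in LL. PLAUR, the urokinase receptor of activated monocytes and neutrophils, was found in 76.9% and 75.9% in LH and 62.5% and 72.7% in LL. For TLR4, the lipopolysaccharide receptor, LH had shares of 30.8% and 82.8% and LL of 62.5% and 63.6%. The stages overlapped for CXCL8 and TLR4, and the low TLR4 share was that of LH replicate 1. Both LH shares of PLAUR were above both LL shares.

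The same genes were sparse in the cells without IL1B. CXCL8 was present in 6 of 103 cells against 46 of 61 with IL1B, PLAUR in 11 against 45 and TLR4 in 9 against 40. For comparison, 0.542% of the 2213 barcodes with at least 2 CD3E UMIs had a CXCL8 UMI, at median depths of 2964 to 3679 UMIs per library. What free RNA in the droplets or doublets contributed to either share was not tested. With each cell thinned to 1000 UMIs, which left 31 cells with IL1B and 92 without, CXCL8 was found in 74.2% and 5.43%.

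Other genes, not all of them particular to myeloid cells, were found in fewer of the cells with IL1B. FCGR3A, an IgG receptor of neutrophils, macrophages and natural killer cells, had a UMI in 19 of 61, the adaptor MYD88 in 19, the lysosomal lipase LIPA in 19 and the chemokine CXCL1 in 13. Lysozyme (LYZ) was seen in 12, resistin (RETN) in 9 and CD14 in 8. In the 103 cells without IL1B these 7 genes were found in 4, 5, 3, 2, 3, 0 and 1 cells in the same order, where 0 allows a share of up to 2.91%. Such limits, here and below, set 3 counts over cells pooled from all libraries and leave out the spread between ewes. CD86, a costimulatory ligand of antigen-presenting cells, was less divided, with 21 of 61 and 19 of 103. MYD88, LIPA and CXCL1 were not in the myeloid panel. Its members TLR2, MRC1 and ITGAM had a UMI in 8, 13 and 5 of all 164 cells.

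Genes of T lymphocytes showed the opposite distribution. CD28, the costimulatory receptor of T cells, had a UMI in none of the cells with IL1B (0 of 61, which allows up to 4.92%) and in 46 of the 103 without, that is 44.0% and 31.6% in LH and 43.2% and 66.7% in LL. As background, it was found in 2.34% of the C1QA cells, at median depths of 3003 to 5706 UMIs per library. Thinned to 1000 UMIs, CD28 was found in 37.0% of the cells without IL1B, 0 of 31 with it (which allows up to 9.68%) and 1.32% of C1QA cells. CD4 was found in 0 and 27 cells, CD40LG, the T cell ligand of CD40, in 0 and 21, and the chemokine XCL1 in 2 and 27. The interferon gamma gene IFNG had UMIs in 2 of 61 and 60 of 103, and TNF in 3 and 56. CD52, a surface glycoprotein of lymphocytes, was found in 6 and 66 cells. No cell held UMIs of CD28 together with IL1B (0) or with CXCL8 (0), whereas 34 of the 46 CD28 cells held IFNG.

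Genes of the T cell receptor complex were rare in the IL1-expressing cells, of which the rule had removed every barcode with CD3E. CD3D had a UMI in 0 of the 46 cells with CD28 (which allows up to 6.52%), CD247 in 2 (4.35%) and the kinase LCK in 5 (10.9%). Among the 2998 CD28 barcodes outside the group, CD3E was found in 49.7%, CD3D in 4.44%, CD247 in 11.1% and LCK in 8.27%. By library, CD3E was found in 62.0% of them in LH replicate 1 and 41.5% in LH replicate 2. In LL replicates 1 and 2 it was found in 43.7% and 41.3%. Whether the CD28 cells described here were T cells with undetected CD3E was not tested. In the barcodes with at least 2 CD3E UMIs, IFNG was present in 51.9%, TNF in 42.1% and CD28 in 27.3%, and IL1A in 7.55%.

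**Figure D2:**
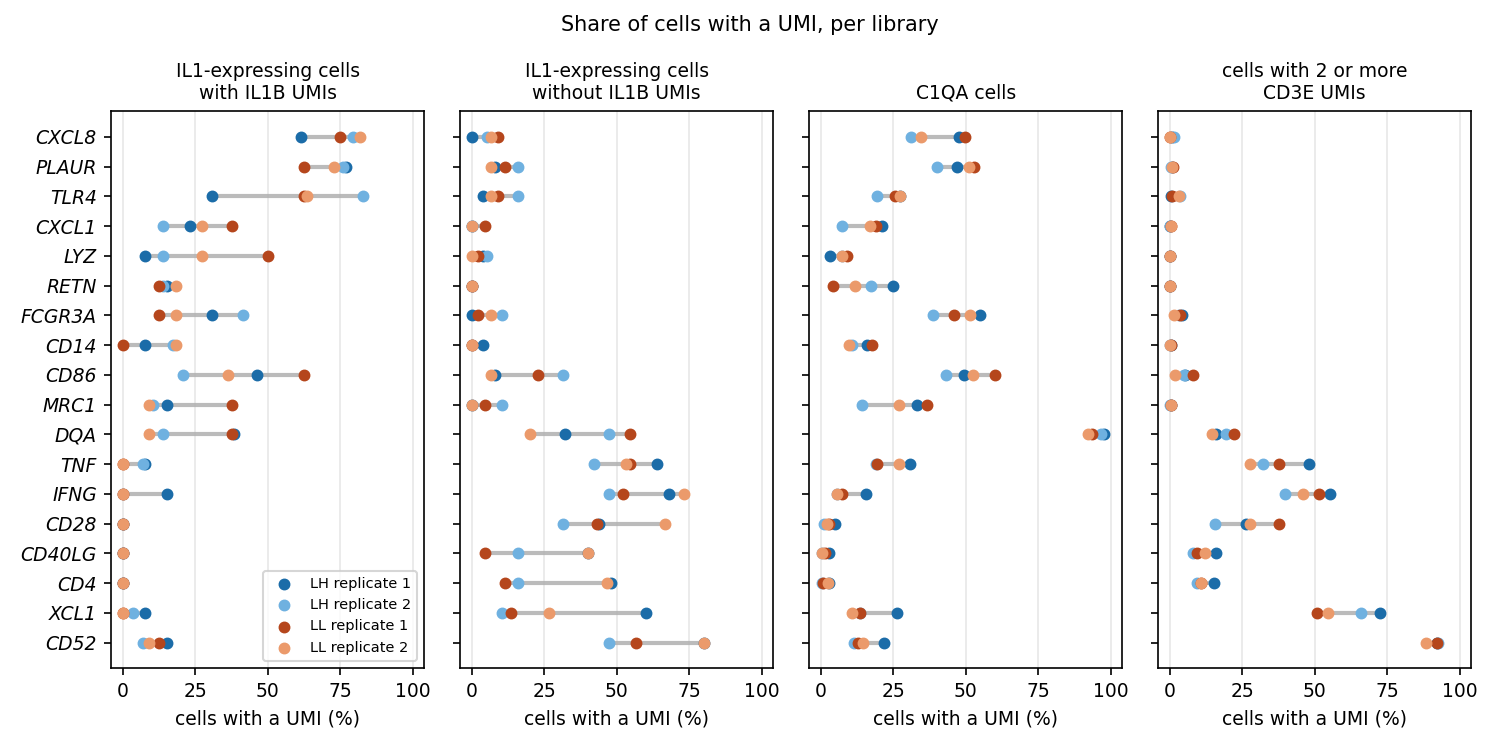
Share of cells with at least 1 UMI (x axis, percent) of 18 genes (y axis) in 4 groups of cells; each point is 1 library and grey bars span the 4 libraries. CXCL8, PLAUR and TLR4 are frequent in IL1-expressing cells with IL1B, whereas CD28, CD4 and IFNG are frequent in those without, as in barcodes with at least 2 CD3E UMIs.

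Cell numbers of both kinds varied between libraries. Cells with IL1B numbered 13 and 29 in LH, against 8 and 11 in LL, and cells without IL1B numbered 25 and 19 in LH and 44 and 15 in LL. LL replicate 1 thus had the fewest cells with IL1B (15.4% of its IL1-expressing cells) and LH replicate 2 the most (60.4%). Since counts were summed per library, every level given for all IL1-expressing cells together can move with this mixture.

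To compare the IL1-expressing cells with macrophages of the same glands, counts were summed per library and tested against the C1QA cells with the ewe as a block (edgeR quasi-likelihood test, Benjamini-Hochberg adjusted p under 0.05). All tested T and natural killer cell genes were higher in the IL1-expressing cells and all tested luminal and milk genes lower. With the C1QA cells held to the same gates, though, 1 of 3 luminal and milk genes passed. A gene could meet the filter on low counts through either group of cells alone, which shapes such counts. Of 6898 genes tested outside the rule, 752 passed (10.9%), with 423 higher (6.13%) and 329 lower (4.77%). Among 360 tested genes with a symbol, 21 were higher (5.83%) and 33 lower (9.17%). Leaving out LH replicate 2 or LL replicate 2 lowered the 752 calls to 484 and 498.

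The list of T and natural killer cell genes had 30 members, of which 12 had a symbol and 5 were tested. All 5 rose, with a median log2 change of 4.78 against -0.18 over all genes tested. Genes low in the C1QA cells, such as CD4 at 0.714 to 8.06 CPM, could pass the filter on low counts through the IL1-expressing sums alone. Listed genes low in both groups dropped out, so this count and median describe only the genes kept. CD28 stood at 425, 100.3, 234 and 429 CPM in the 4 libraries (LH replicates 1 and 2, then LL replicates 1 and 2) against 24.2, 3.33, 11.3 and 5.78 in the C1QA cells. It was 4.97 higher on the log2 scale (SE 0.39, edgeR adjusted p = 1.31e-07). The groups did not overlap, and LH replicate 2, in which the smallest share of cells (39.6%) lacked IL1B, was lowest of the IL1-expressing sums. LL replicate 1, in which the largest share (84.6%) lacked IL1B, was below LH replicate 1 and LL replicate 2. What the mixture contributed was not tested. IFNG stood at 1405, 548, 543 and 1301 CPM against 120, 23.8, 21.7 and 44.1 in the C1QA cells, a log2 difference of 4.57 (SE 0.32, edgeR adjusted p = 3.38e-08). Every IL1-expressing sum was above every C1QA sum. CD4, the co-receptor of helper T cells, rose by 5.24, CD40LG by 4.78 and XCL1 by 2.37 on the log2 scale. TNF rose by 1.13 (SE 0.30, edgeR adjusted p = 0.0168), the chemokine receptor CXCR4 by 1.98 and the leukocyte integrin ITGAL by 1.87. Without the ewe as a block all 5 list genes still passed, while TNF, CXCR4 and ITGAL did not (adjusted p = 0.287, 0.0739 and 0.102). TNF was also lost without LH replicate 2 or LL replicate 1 (adjusted p = 0.0689 and 0.0763). In all, TNF lost the call in 8 of 13 other settings, with log2 changes of 0.42 to 1.28. The T and natural killer list summed to 1053 to 4542 CPM in the IL1-expressing cells, 1512 to 6229 CPM in those without IL1B, 0 to 795 CPM in those with IL1B and 111 to 389 CPM in the C1QA cells. Its CD3D, LCK, CD4, CD28, CD40LG and NCR1 were at 0 in the cells with IL1B.

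Further named genes rose. SLAMF1, a costimulatory receptor of lymphocytes, rose by 4.83 and CD52 by 3.43 on the log2 scale. SLC2A3, a glucose transporter, stood at 1766, 1296, 1091 and 1467 CPM against 326, 139, 218 and 143 in the C1QA cells, 3.01 higher (SE 0.29, edgeR adjusted p = 1.11e-06), with no overlap. It was found in 37 of 61 cells with IL1B and 86 of 103 without. The gene LYZ stood at 27.7, 262, 71.5 and 332 CPM against 6.45, 12.9, 17.4 and 11.6, a difference of 3.71 (SE 0.51, edgeR adjusted p = 5.91e-05). TMEM154 rose by 3.67 and ID3, an inhibitor of helix-loop-helix factors, by 2.15. Both were found more often in the cells with IL1B, TMEM154 in 43 of 61 against 29 of 103 and ID3 in 20 of 61 against 15 of 103.

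Of the markers given for these cells, neither CXCL8 nor CD14 passed the test against the C1QA cells. CXCL8 stood at 1193, 1157, 181 and 900 CPM against 3013, 320, 939 and 361 in the C1QA cells, a log2 difference of 0.08 (SE 0.54, edgeR adjusted p = 0.957). It was higher in replicate 2 of both stages and lower in replicate 1 of both. CD14 stood at 27.7, 46.3, 0 and 41.5 CPM against 40.3, 23.8, 36.5 and 15.9, a difference of -0.06 (SE 0.69, edgeR adjusted p = 0.971). The direction of both turned in several other settings.

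Genes of the IL1 pathway and its NF-kappa-B targets mostly did not pass. In the IL1 family and inflammasome list, of whose 30 genes 5 could be found by symbol and 3 were tested, IL18 fell by 1.52 on the log2 scale (SE 0.39, edgeR adjusted p = 0.0160), and MYD88 and IRAK4 did not pass, at 1.35 (adjusted p = 0.0871) and 0.11. None of the 5 NF-kappa-B response genes tested passed (0 of 5): ICAM1, IRF1, NFKBIA, PLAU and PTGS2, 1 of them at an unadjusted p under 0.05, which 1605 of all genes tested reached (23.3%). NFKBIA, which NF-kappa-B induces and which restrains it, stood at 3106, 3518, 2206 and 4069 CPM against 6075, 2627, 4673 and 3809 in the C1QA cells. These ranges overlapped. Among 7 pattern recognition genes TLR3 fell by 2.89, and TLR4, 1.51 higher, did not pass (adjusted p = 0.0637). The call of IL18 was lost without LH replicate 1, LH replicate 2 or LL replicate 2 (adjusted p = 0.117, 0.0666 and 0.0700), and that of TLR3 without any 1 of LH replicate 2 and both LL replicates (adjusted p = 0.179, 0.126 and 0.0951).

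Of 4 macrophage genes tested CTSB and SPP1 fell, and of 3 Fc and complement receptor genes FCGR1A and FCGR3A fell. SPP1 is also in the luminal and milk list. The IL1-expressing cells were chosen for no C1QA UMI and the C1QA cells for at least 2. That choice bears on every gene found alongside C1QA. None of the 5 antigen presentation and costimulation genes passed (0 of 5), with 1 at an unadjusted p under 0.05. DQA, an MHC class II gene named here after its values were seen, stood at 490, 3055, 1515 and 83.0 CPM against 7685, 4366, 4162 and 2295 in the C1QA cells, and fell by 2.28 (SE 0.51, edgeR adjusted p = 0.00539). It had a UMI in 57 of 164 IL1-expressing cells and 95.4% of C1QA cells. FCGR3A fell by 1.68 and the lysosomal protease CTSB by 1.21. FCGR1A, the high-affinity IgG receptor, had 3 UMIs in all IL1-expressing cells and ranged from 26.7 to 68.5 CPM in the C1QA cells. CD86 did not pass, at 0.02 (adjusted p = 0.975), and neither did CD80, PLAUR, MRC1 or CXCL1. Interferon-induced genes went both ways: ISG15 rose by 1.54, and MX2, an interferon-induced GTPase, fell by 3.49 on the log2 scale. Several of these calls were lost when 1 library was left out: DQA was lost without LH replicate 1 (adjusted p = 0.0655), FCGR3A without any 1 of LH replicate 1 and both LL replicates (0.183, 0.148 and 0.0741), CTSB without LH replicate 1, LH replicate 2 or LL replicate 1 (0.296, 0.108 and 0.166) and ISG15 without LH replicate 1, LH replicate 2 or LL replicate 2 (0.146, 0.245 and 0.0626). Without the ewe as a block none of DQA, FCGR3A, CTSB and ISG15 passed (adjusted p = 0.222, 0.146, 0.205 and 0.0611), and ISG15 did not pass against C1QA cells with the same gates (adjusted p = 0.130).

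All 4 tested genes of the luminal and milk list fell, the tight junction gene CLDN4, lactoferrin (LTF), beta-lactoglobulin (PAEP) and osteopontin (SPP1), with a median of -4.15. Here the filter on low counts could be met through the C1QA sums alone. LTF stood at 0, 54.0, 19.1 and 41.5 CPM against 33.9, 1305, 583 and 3498 in the C1QA cells and fell by 5.09 (SE 0.42, edgeR adjusted p = 2.60e-07). The rule had removed EPCAM barcodes from the IL1-expressing cells but not from the C1QA cells, and the list summed to 10.3 to 294 CPM in the former and 240 to 5596 in the latter. With the C1QA cells held to the same gates, LTF differed by -0.95 (adjusted p = 0.196), PAEP by -1.20 (adjusted p = 0.0724) and the small heat shock protein CRYAB by -0.37 (adjusted p = 0.631), and none of these 3 passed. SPP1 still fell, by 2.45 (adjusted p = 0.0133). Also lower against the same-gated C1QA cells were ALDH1A1, a retinaldehyde dehydrogenase, by 4.13 and PMP22, a membrane protein of myelin, by 3.58. Claudin-7 (CLDN7), ITGB6, BCO2 and THRB had 3, 3, 1 and 2 UMIs in the IL1-expressing cells against 3008, 1186, 383 and 437 in the C1QA cells. Without LL replicate 1 the calls of CLDN4, BCO2 and THRB were lost (adjusted p = 0.126, 0.0534 and 0.0885), and without LH replicate 2 those of CLDN4 and THRB (adjusted p = 0.301 and 0.0926).

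Genes without a symbol held some of the largest differences. ENSOARG00000005126 stood at 148, 216, 76.2 and 83.0 CPM against 1.61, 0.476, 0 and 0 in the C1QA cells. ENSOARG00000006889 stood at 120, 208, 19.1 and 609 CPM against 0 in every C1QA sum. The first was found in 23 cells with IL1B and 6 without, and the second in 11 and 2. Lower in the IL1-expressing cells, ENSOARG00000007977 stood at 0, 23.1, 0 and 0 CPM against 2567, 1426, 1994 and 1115. ENSOARG00000007991 stood at 9.24, 30.9, 9.53 and 0 against 4504, 1758, 2193 and 945. The choice of both groups of cells by C1QA bears on these lower genes as well. What the genes without a symbol encode was not given in the sources used here.

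**Figure D3:**
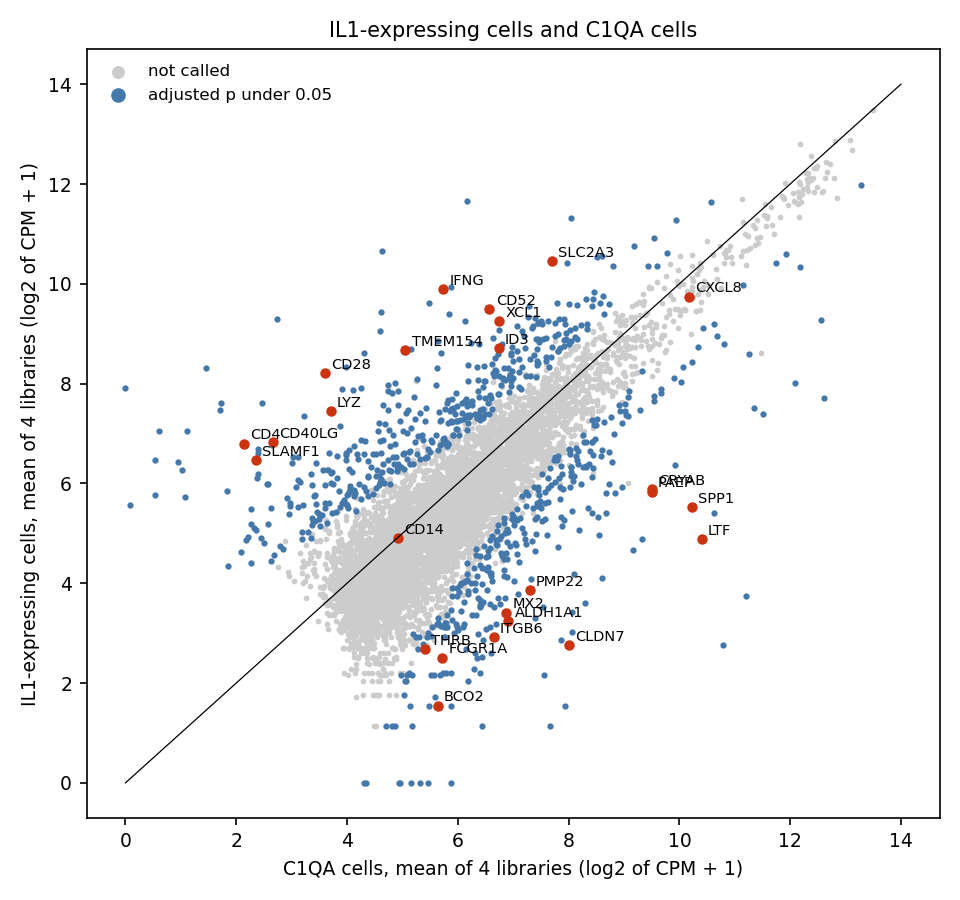
Mean level over 4 libraries in C1QA cells (x axis) and in IL1-expressing cells (y axis), log2 of CPM + 1, for the 6898 genes tested; blue points passed an adjusted p under 0.05, red points are the named genes and the line marks equal levels. CD28, CD4 and IFNG lie above the line, LTF, SPP1 and CLDN7 below it, and CXCL8 and CD14 near it.

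Against all other cells of the same libraries, 38722 in number, the IL1-expressing cells had higher levels of several myeloid and T cell genes and lower levels of several epithelial, fibroblast and vascular genes. Of 12719 genes tested outside the rule, 2141 passed (16.8%), with 691 higher (5.43%) and 1450 lower (11.4%), or 32.3% of calls higher. Scaling moved this split: with size factors of the RLE method 43.0% of the calls were higher. With DESeq2, where size factors and test both differ, 52.3% of 1388 calls were higher. The median log2 change of all genes tested was -0.59, and it was -0.40 and -0.29 in those fits. Of the 548 tested genes with a symbol, 56 were higher (10.2%) and 88 lower (16.1%). As in the C1QA comparison, a gene could meet the filter on low counts through either group of cells alone, which shapes such counts. Without LH replicate 2 or LL replicate 2, 1236 and 1381 genes passed.

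Both tested markers rose. CXCL8 stood at 1205, 1179, 193 and 929 CPM against 143, 28.8, 40.6 and 9.55 in the other cells, 4.26 higher on the log2 scale (SE 0.33, edgeR adjusted p = 1.91e-35). The lowest IL1-expressing sum, that of LL replicate 1, was above the highest of the other cells. CD14 stood at 28.0, 47.2, 0 and 42.9 CPM against 3.87 to 6.07 and rose by 2.16 (SE 0.72, edgeR adjusted p = 0.0196). It was higher in 3 of 4 libraries, and it did not pass when LH replicate 1, LH replicate 2 or LL replicate 2 was left out (adjusted p = 0.121, 0.301 and 0.133).

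Among the named rises were genes of innate immunity. LYZ stood at 28.0, 267, 76.0 and 343 CPM against 1.05 to 2.99 in the other cells and rose by 6.39 (SE 0.50, edgeR adjusted p = 3.15e-34), from 76 UMIs in 15 cells. TLR4 stood at 140, 621, 65.9 and 443 CPM against 11.4 to 18.9 and rose by 4.07 (SE 0.37, edgeR adjusted p = 9.88e-26). LH replicate 1 and LL replicate 1 were the lower pair for both genes, and neither gene overlapped with the other cells. SLC11A1, a metal transporter of phagosomes, rose by 5.82 from 12 UMIs in 8 cells, RETN by 5.41 from 36 UMIs in 9 cells and CXCL1 by 4.64. PLAUR rose by 3.86, CD86 by 3.98, CD80, which shares its receptors with CD86, by 3.19, the leukocyte tetraspanin CD53 by 3.18 and the mannose receptor MRC1 by 3.02. Among 8 pattern recognition genes, CD14, TLR2, TLR4 and TLR8 rose, and 3 of 4 monocyte genes did (CD14, LYZ, PLAUR). Of 4 macrophage genes CD14, CTSB and MRC1 rose and SPP1 fell, and of 3 dendritic cell genes CD80 and CD86 rose. Of 3 neutrophil genes FCGR3A rose and LTF fell. These lists share members such as CD14 and do not separate the cell types. The call of CTSB was lost in 6 of 13 other settings and that of FCGR3A in 3. TLR8 was lost without LH replicate 1, LH replicate 2 or LL replicate 2 (adjusted p = 0.0607, 0.264 and 0.269), which left 2 pattern recognition genes in each case.

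Of 5 NF-kappa-B response genes NFKBIA, PLAU and PTGS2 rose, by 1.43, 2.04 and 1.87 on the log2 scale. NFKBIA stood at 3137, 3584, 2347 and 4201 CPM against 1040 to 1300 in the other cells, with no overlap, and was detected in 52 of 61 cells with IL1B and 89 of 103 without. The adaptor MYD88 rose by 2.25, while IRAK4 at 0.40 and IL18 at -0.80 did not pass. PTGS2, the inducible prostaglandin synthase, rested on 51 UMIs in 8 cells, 21 of them in 1 cell, and did not pass without LH replicate 1 or LH replicate 2 (adjusted p = 0.205 and 0.711).

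T cell genes rose as well. In the T and natural killer list 6 of 10 tested genes rose, namely CD28, CD4, CD40LG, CTLA4, IFNG and IL2RA, with a median of 2.06. CD28 rose by 2.88 (SE 0.33, edgeR adjusted p = 2.89e-16) above other cells that include the barcodes with CD3E. CD3D, CD247, LCK and XCL1 did not pass. Outside this list, TNF rose by 1.88 and CXCR4 by 2.03. CTLA4 rested on 23 UMIs in 7 cells, 11 of them in 1 cell, and did not pass without any 1 of LH replicate 1 and both LL replicates (adjusted p = 0.720, 0.0850 and 0.0784). IL2RA did not pass without LH replicate 2 or LL replicate 1 (adjusted p = 0.171 and 0.476). Without the ewe as a block, CD28 alone of the list passed: CD4, CD40LG and IFNG had adjusted p of 0.0694, 0.138 and 0.0916. TNF, which belongs to the cytokine list, did not pass there either (adjusted p = 0.149).

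Markers of structural cells were lower. All 6 tested luminal and milk genes fell (ABCG2, CLDN4, CSN3, LTF, PAEP and SPP1), 7 of 9 fibroblast genes fell and 5 of 10 vascular, mural and myoepithelial genes fell. EPCAM, EDNRA and DCN in the rule had chosen against these cell types. Genes could also meet the filter on low counts through the other cells alone. Of the fibroblast genes that fell, SFRP2 and FGF10 had no UMI in the IL1-expressing cells, and FGF7 and SERPINF1 had 1 each. With LL replicate 1 left out 4 of the 6 luminal and milk genes and 3 of the 9 fibroblast genes passed, ABCG2 did not (adjusted p = 0.274), and CSN3 turned to 0.012 (adjusted p = 0.998). LTF stood at 0, 55.0, 20.3 and 42.9 CPM against 399, 1088, 802 and 3485, a fall of 5.48 on the log2 scale. SCD5, a fatty acid desaturase, had no UMI in any IL1-expressing cell (0 of 481316 UMIs) and averaged 27.9 CPM in the other cells, so that it was at least 4.47-fold lower when set against a floor of 3 counts over all the cells.

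The share of IL1-expressing cells among kept barcodes was 0.649% and 0.513% in LH (38 and 48 cells) and 0.411% and 0.236% in LL (52 and 26 cells). The 95% intervals (exact, Clopper-Pearson), for which counting is the only error considered, ran from 0.460 to 0.890% and from 0.378 to 0.679% in LH, and from 0.307 to 0.539% and from 0.154 to 0.345% in LL. Both LL libraries were below both LH libraries. LL averaged 0.324% ± 0.124 and LH 0.581% ± 0.0965 (SD, n = 2 each), a difference of -0.257 percentage points. The exact two-sided permutation test gave p = 0.3333, the smallest that 2 against 2 libraries allow. The stages overlapped at an IL1 minimum of 2 UMIs, where LH replicate 2 (0.694%) was below LL replicate 1 (0.799%), with an exact permutation p of 0.667. With barcodes under 1000 UMIs left out they overlapped as well (0.578% and 0.302% in LH, 0.404% and 0.187% in LL). Shares are of dissociated cells and move with the number of all other cells, among them the many CD3E barcodes of LH replicate 1.

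Cells with IL1B made up 0.222% and 0.310% of kept barcodes in LH and 0.0633% and 0.0997% in LL, with no overlap. Cells without IL1B made up 0.427% and 0.203% in LH and 0.348% and 0.136% in LL, and the stages overlapped. These shares were taken after the data had been seen. The median depth of the IL1-expressing cells was 2088 and 1018 UMIs in LH and 2361 and 1819 in LL, against 3557, 3003, 5706 and 3716 in the C1QA cells of the same libraries, and what depth contributed to the shares was not tested.

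**Figure D4:**
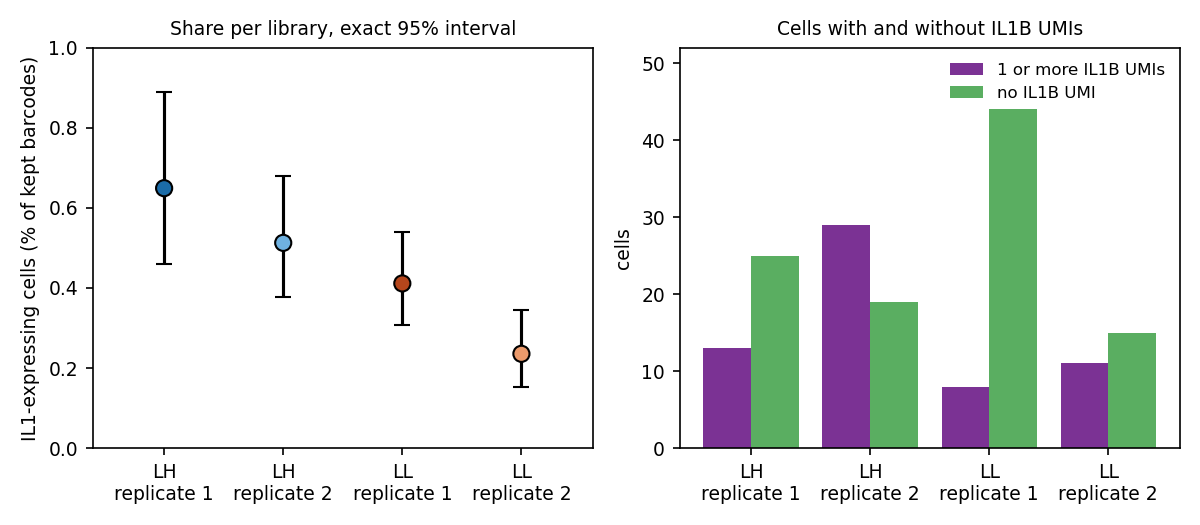
Left, IL1-expressing cells as a percentage of kept barcodes in each library with exact 95% intervals (bars); right, number of these cells with and without an IL1B UMI. The share runs from 0.236% to 0.649%, and LL replicate 1 has 44 cells without IL1B and 8 with it.

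Between the stages, few genes of the IL1-expressing cells differed beyond the spread between ewes. Of 2070 genes tested with edgeR, 1 passed (0.0483%), lower in LL, and 71 had an unadjusted p under 0.05 (3.43%). DESeq2 called 2 genes. No gene with a symbol passed (0 of 163). Both LL libraries were above both LH libraries for 276 genes (13.3%) and below for 344 (16.6%). With n = 2 per stage, p-values here measure the spread between these 4 libraries.

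The gene that passed, ENSOARG00000018275, has no symbol and is named because it was the only call. Its level was 919 and 1280 CPM in the LH libraries, against 66.5 and 29.7 in LL, a log2 difference of -4.34 (SE 0.62, edgeR adjusted p = 0.0472). It was found in 32 of the 61 cells with IL1B and 8 of the 103 without. In LH replicate 1, though, 3 cells without IL1B held 64 of its 90 UMIs. LH replicate 2, which had the most cells with IL1B, was highest. Within the cells with IL1B it reached 861 and 2719 CPM in the LH libraries, against 236 and 37.2 in LL, so the stages did not overlap there either. The call was lost with barcodes under 1000 UMIs left out and with an IL1 minimum of 2.

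Named genes of lowest p did not pass. PTGS2 stood at 235 and 204 CPM in the LH libraries and at 16.6 and 0 in LL, a log2 difference of -4.10 (SE 0.80, edgeR adjusted p = 0.349). KLF4, a transcription factor of monocyte differentiation, stood at 10.2 and 73.4 CPM in the LH libraries and at 327 and 341 in LL, a difference of 2.94 (SE 0.71, edgeR adjusted p = 0.561). Neither gene overlapped between stages, and KLF4 rested on 92 UMIs in 23 cells. PTGS2 passed without LL replicate 1 (adjusted p = 0.0385) and with no filter on low counts (0.00472), and KLF4 passed without LH replicate 2 (0.00192), without LL replicate 1 (0.0404) and with no filter (0.0359). ISG15 stood at 276 and 334 CPM in LH and 44.4 and 119 in LL, and IFNAR1, a subunit of the type I interferon receptor, at 163 and 212 in the LH libraries, against 66.5 and 74.2 in LL. The adjusted p of both was 0.992, as it was for GAPDH (368 and 669 CPM in LH, 1081 and 994 in LL), ATP5MC1, BHLHE40, RAB7A, ITGAV and RABAC1.

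The marker CXCL8 stood at 1318 and 1223 CPM in LH and 211 and 964 in LL within the IL1-expressing cells, a log2 difference of -1.05 (SE 0.66, edgeR adjusted p = 0.992). Both LL values were below both LH values, and LL replicate 1, with 8 cells holding IL1B, was lowest. Of the NF-kappa-B response list 4 genes were tested and 0 passed, and of the T and natural killer list 5 were tested and 0 passed, with 1 and 0 at an unadjusted p under 0.05. In sums over all IL1-expressing cells, fewer cells with IL1B and less RNA of these genes per cell cannot be told apart. Restricted to the cells with IL1B, CXCL8 plus CD14 reached 4304 CPM in LH replicate 1 and 2830 in LH replicate 2. LL replicates 1 and 2 were both lower, at 365 and 2452 CPM. The NF-kappa-B response list overlapped between stages in these cells, with 6688 and 6666 CPM in LH and 4296 and 8731 in LL. Neither difference was tested.

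**Figure D5:**
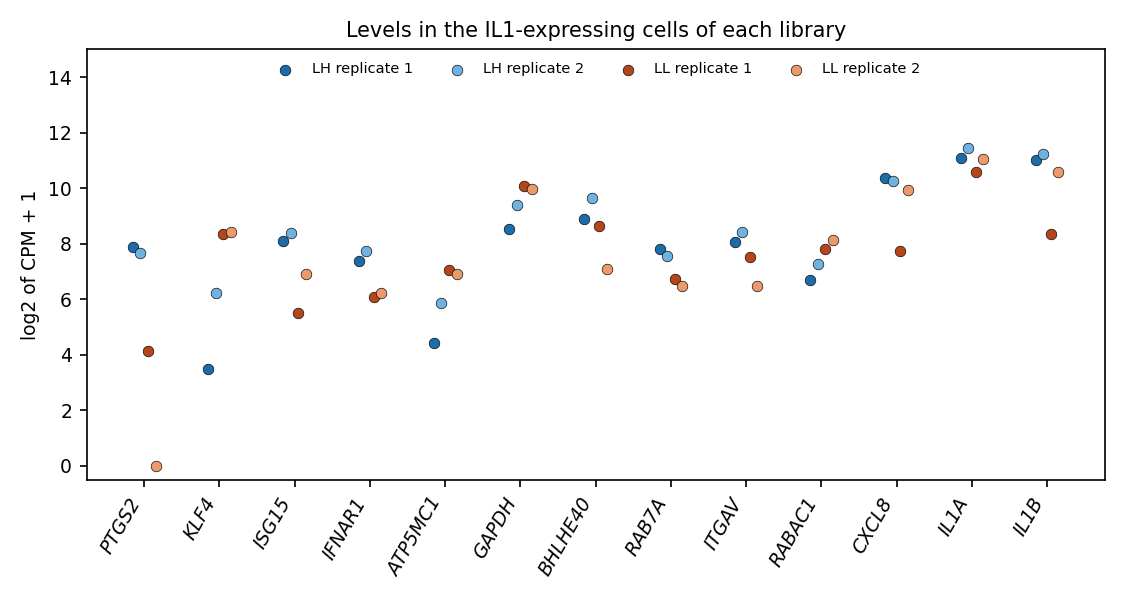
Level in the IL1-expressing cells of each library (y axis, log2 of CPM + 1) for the 10 named genes of lowest p between LL and LH, and for CXCL8, IL1A and IL1B; each point is 1 library. PTGS2 and KLF4 are the most separated, with adjusted p of 0.349 and 0.561.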

How the data were processed

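Single-cell libraries of 4 ewes were used as UMI counts per gene and barcode, as deposited by the authors. Per the file headers these came from Cell Ranger 7.2.0; the submitters' processing notes name Cell Ranger 5.0.1, STAR and Seurat 3.2.0. The genome build was not given in the sources used here. Groups came from library titles, and 0 columns were left unmatched. Of 20150 genes 774 had a symbol; 0 identifiers and 762 symbols were found in the supplied reference table, so no sequence or coordinate is given.

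Members, comparison groups, gene lists (29) and tests were chosen with earlier results of these data known, and the 2 panels and the division by IL1B after the cells had been seen; such divisions carry no test. Barcodes over 20% mitochondrial UMIs (13 genes) were dropped. Doublets were kept and marked with Scrublet (scanpy 1.11.5, expected 6%); its automatic threshold called 0 in LH replicate 1, where the top 6% of scores were used. Summed counts of each cell group and library (at least 10 cells) went into edgeR 4.0.16 (quasi-likelihood, R 4.3.3) with TMM, filterByExpr at a minimum count of 10 and the ewe as a block; the 7 rule genes stayed out of calls against other cells. CPM compared between groups of cells or stages are TMM-scaled; IL1A and IL1B levels, list sums, the SCD5 mean and levels within cells with or without IL1B are unscaled. Shares were compared by exact permutation over 6 arrangements.

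Genes named were those with a symbol, an adjusted p under 0.05, at least 20 CPM in the higher group and 1 direction in every library: 12 highest and 12 lowest against C1QA cells, 15 and 5 against all other cells, the 10 of lowest p between stages, the markers and list members; 2 of the genes so chosen are not reported here. Alternatives were DESeq2 1.42.0, RLE size factors, no filter, other IL1 minimums (2 or 5 UMIs), at least 1000 UMIs, no doublets, no ewe block, C1QA cells with the same gates, other cells without C1QA cells, and each library left out. Precision is set by the few cells (26 to 52 per library) and by 2 ewes per stage.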

Additional observations from a re-analysis of the deposited data

Results flagged for a closer look

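For 4 genes of the fixed lists the IL1-expressing cells differed from the C1QA cells in one direction in both LH libraries and in the opposite direction in both LL libraries. The difference between the stages was not tested for any of them, and none of the 4 passed the test of the IL1-expressing against the C1QA cells. Values are the mean log2 difference in LL minus that in LH.

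PTGS2 had a value of -6.11, with 213 and 193 CPM in the IL1-expressing cells of LH and 14.3 and 0 in LL, against 95.1, 12.8, 57.7 and 39.0 in the C1QA cells. It rested on 8 cells. PPARG, a nuclear receptor of lipid metabolism, had -3.82, with 74.0, 69.4, 52.4 and 0 CPM against 61.3, 31.9, 166 and 23.9. IRAK4, a kinase of the IL1 receptor pathway, had -0.487, and PSMB8, a subunit of the immunoproteasome, had 0.738.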

How the results depend on the processing

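The share of IL1-expressing cells was lower in LL under every setting run: -0.226 percentage points at an IL1 minimum of 2, -0.150 at 5, -0.267 without doublets, -0.145 with at least 1000 UMIs, -0.514 as a share of barcodes without CD3E, and -0.345 to -0.170 with 1 library left out. Added after the data were seen, it was -0.184 for cells with IL1B and -0.0730 for cells without. Against the C1QA cells, 1137 genes were called with no filter on low counts, 432 without the ewe block and 484 to 672 with 1 library left out (752 in the report). Against all other cells, DESeq2 called 1388, the fit without the ewe block 1178, and 1236 to 1646 were called with 1 library left out (2141 in the report). Between stages, the 1 call became 0 at an IL1 minimum of 2 and with at least 1000 UMIs, 2 with DESeq2, 14 with no filter and 7 to 22 with 1 library left out, where the lone library of a stage is assumed to vary like the other stage.

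Of the named genes, CXCL8 against the C1QA cells turned to -0.57 at an IL1 minimum of 2, -0.11 with at least 1000 UMIs, -0.10 with no filter, -0.65 against C1QA cells with the same gates, -0.25 without the ewe block, and ran from -0.66 (without LH replicate 2) to 0.83 with 1 library left out, -0.50 without LL replicate 2. CD14 turned to 0.43 at an IL1 minimum of 5, 0.14 without doublets, and ran from -0.70 to 0.76 (without LL replicate 1) with 1 library left out, 0.08 without LH replicate 1. The cause was not tested. CSN3 against all other cells ran from -2.28 to 0.012 with 1 library left out, the latter without LL replicate 1. All other values of named and called list genes kept their direction in these settings. Of these, 85 of 526 against the C1QA cells and 129 of 870 against all other cells lost the call, and 5 of 156 between stages gained it.

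Replicate numbers did not pair the ewes: deviations of same-numbered libraries correlated at -0.03 over 2070 genes. With the replicate block, 0 genes were called between stages, and the difference in share was -0.257. Depth limits what a missing UMI shows, since the cells held a median of 1018 to 2361 UMIs per library.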
